A study of Caenorhabditis elegans with 63 samples.

Results

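The change in microRNA levels between the last larval stage (L4) and the Adult stage was measured in Caenorhabditis elegans carrying the drsh-1 allele cdb330. It rests on 6 of the 63 libraries of the series, chosen by their labels: 3 of drsh-1(cdb330) Adults and 3 of drsh-1(cdb330) L4 larvae, all made with the NEBNext small RNA kit from total RNA of whole worms grown at 20 °C. The same stages were available for wild type (3 Adult and 3 L4 libraries) and for a second drsh-1 allele, cdb328 (3 Adult and 3 L4 libraries), and these serve as comparisons. A further 3 Adult libraries each of cdb330, wild type and cdb328 had been made with adaptors that carry degenerate bases. No L4 library of that kind was used here. The series is described as a set of drsh-1 deletion mutants, but the labels do not say which part of the gene cdb330 or cdb328 removes, nor the hour within L4 or adulthood at collection. Nothing states that the 3 libraries of a group came from separate cultures, and the p-values below therefore speak of the spread among these libraries, which may be technical. Reads of mature microRNAs hold no drsh-1 mRNA, so the mutated gene itself could not be checked.

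drsh-1 encodes Drosha, the nuclear RNase III that, with its partner PASH-1 (DGCR8 in mammals), forms the Microprocessor and cuts hairpins out of primary microRNA transcripts. Dicer then cuts the hairpin, and either its 5p or its 3p arm is loaded into an Argonaute protein while the other arm, written with a star, is mostly discarded. At the turn from larva to adult, worms normally shift from microRNAs that time larval cell fates, such as lin-4 and let-7, to those deposited in oocytes and embryos, of which the miR-35 family is the main group.

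Each library held between 2271836 and 2681286 microRNA reads in cdb330, and between 1891780 and 2835112 over all 18 NEBNext libraries of the 3 genotypes. Of 276 mature arms counted, 215 passed the filter on low counts and were tested. The 61 others each held at most 36 reads summed over the 6 cdb330 libraries and together 0.00316% of the microRNA reads. Plant spike-in RNA made up 19.2% to 36.1% of the reads of a library, and the labels do not give the amount added. Levels are in CPM (counts scaled to a common library size by TMM), a scaling that takes most arms as unchanged, and fold changes are log2 ratios ± SE from edgeR's quasi-likelihood fit, with Benjamini-Hochberg adjusted p over the 215 arms and a threshold of 0.05. Levels are compared between libraries for the same arm, and an arm is called abundant or scarce by its reads alone.

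Between L4 and Adult, most of the microRNAs of cdb330 worms changed in relative level. In cdb330, 151 of 215 arms (70.2%) passed the threshold, 72 higher in Adults (33.5%) and 79 lower (36.7%). Changes of at least 2-fold were seen for 34 of the higher and 44 of the lower arms, and changes of at least 8-fold for 13 higher and 6 lower. In wild type, 144 arms passed (67%), 62 higher (28.8%) and 82 lower (38.1%), of which 28 and 26 were at least 2-fold and 1 and 0 at least 8-fold. In cdb328 the number was 102 (47.4%), 35 higher (16.3%) and 67 lower (31.2%). The Adult and L4 libraries of cdb330 did not overlap for 153 of 215 arms (71.2%), against 149 (69.3%) in wild type. The median change over all arms was -0.06 in cdb330, -0.27 in wild type and -0.25 in cdb328.

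**Figure D1:**
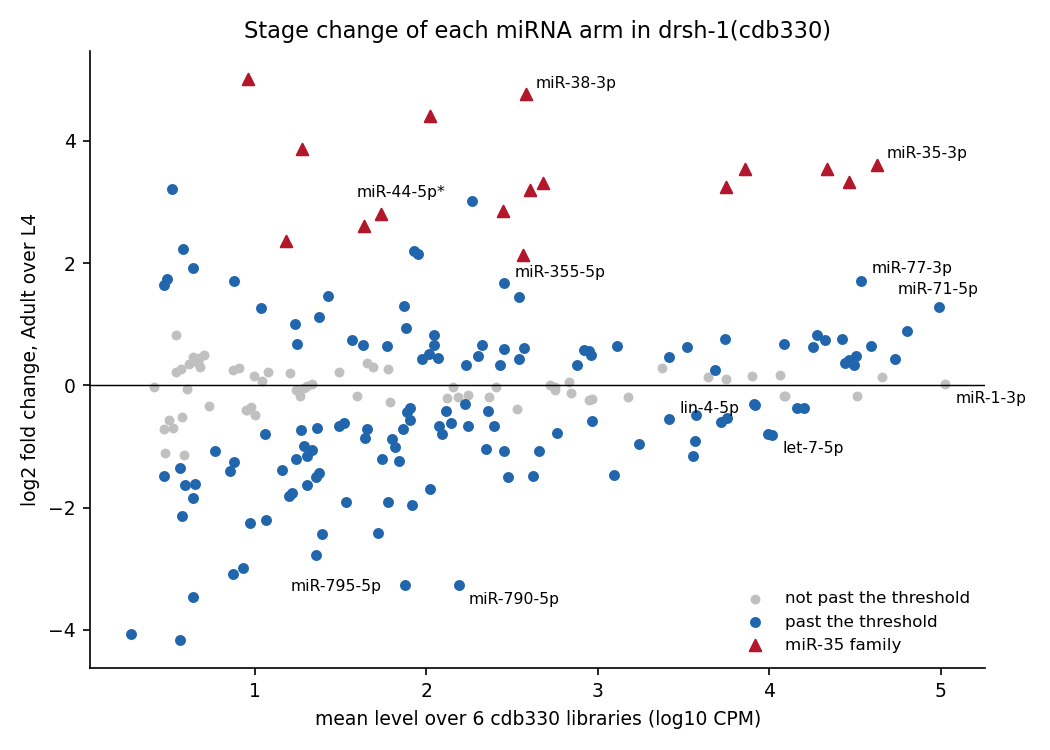
Stage change of each of the 215 tested arms in cdb330. The horizontal axis is the mean level over the 6 cdb330 libraries (log10 CPM) and the vertical axis the log2 fold change of Adult over L4 under TMM scaling. Red triangles are the 16 arms of the miR-35 family, which all lie between 2.13 and 5.01, blue points are other arms past the threshold and grey points are arms that are not.

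How the libraries are scaled sets the balance of higher and lower arms in cdb330. With total microRNA reads as the scale, the 215 changes moved by a median of -0.63 and the calls were 33 higher and 127 lower. Scaling on the spike-ins moved them by -1.35, with 20 higher and 176 lower. Wild type moved less, by -0.53 with total reads (27 higher, 130 lower) and by -0.77 with spike-ins (21 higher, 147 lower). DESeq2's size factors moved cdb330 by 0.03 and left 75 higher and 77 lower. All changes below are relative to the TMM scale, and those of some arms and families turn direction under another.

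The miR-35 family (mir-35 to mir-42), which oocytes hand on to the embryo and embryos need, held the 10 largest rises among arms with a mean of at least 10 CPM. All 16 arms of its 8 hairpins rose in cdb330 Adults, against 33.5% of all arms, with a median log2 change of 3.32 and a range of 2.13 to 5.01, and no arm's Adult and L4 libraries overlapped. They rose under TMM, DESeq2, total-read and spike-in scaling alike, with medians of 3.32, 3.35, 2.70 and 1.98. In bulk RNA of whole worms, more cells of a type and more RNA per cell cannot be told apart. The family's share of the microRNA reads was 16.1%, 16.3% and 17.2% in the 3 cdb330 Adult libraries and 2.57%, 1.62% and 2.60% in the 3 cdb330 L4 libraries. These make 16.5% ± 0.584 in Adults and 2.26% ± 0.558 in L4 larvae (SD, n = 3 each).

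**Figure D2:**
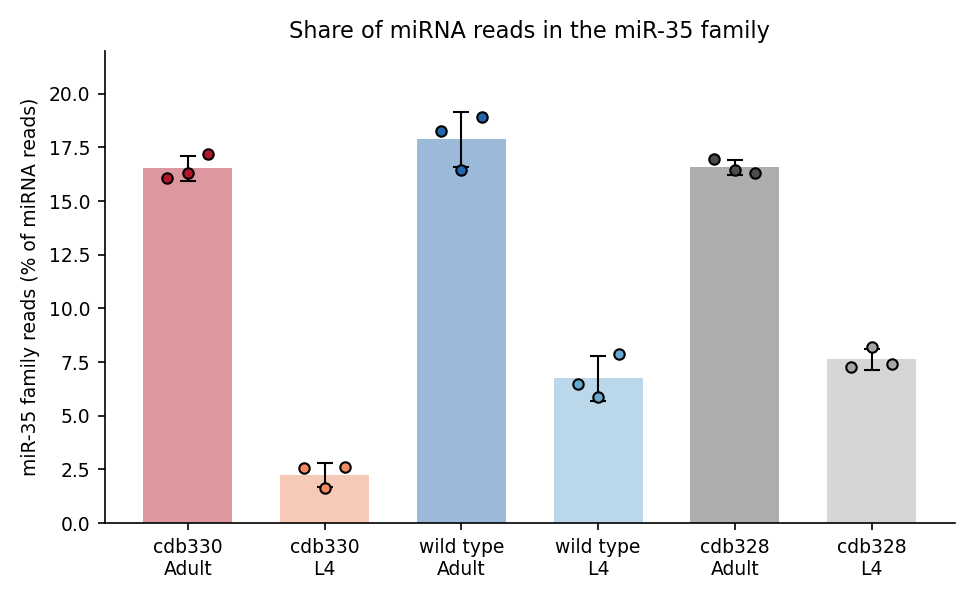
Share of microRNA reads in the miR-35 family, in percent, for each of the 6 groups. Points are libraries, bars the mean and error bars the SD of 3 libraries. The 3 Adult groups average 16.5% in cdb330, 17.9% in wild type and 16.6% in cdb328, while the L4 groups average 2.26%, 6.74% and 7.64%.

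The abundant members showed it in every library. miR-35-3p had 69762, 79859 and 85259 CPM in cdb330 Adults and 7935, 4070.2 and 7206 CPM in cdb330 L4 larvae. Every Adult library was well above every L4 library, and the log2 change was 3.61 ± 0.19 (SE; edgeR adjusted p = 7.54e-14). miR-37-3p had 51089.6, 53312 and 54573 CPM in Adults against 5663, 3431 and 6670.1 CPM at L4, a change of 3.33 ± 0.17 (edgeR adjusted p = 4.61e-14). miR-39-3p had 40871, 41850.1 and 37929 CPM in Adults against 3861, 2335 and 4244 CPM at L4, a change of 3.53 ± 0.18. miR-36-3p had 11969, 13079 and 14842 CPM in Adults and 1335, 834 and 1273 CPM at L4, a change of 3.54 ± 0.16. In each of these the L4 replicate 2 library was the lowest of the 6. miR-40-3p had 10357, 9292 and 10619 CPM in Adults and 1245, 656 and 1293 CPM at L4, and its change was 3.24 ± 0.18.

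Among the scarcer arms, miR-38-3p rose most of those with a mean of at least 10 CPM, with 785, 684 and 732 CPM in cdb330 Adults and 30.7, 18.8 and 31.3 CPM at L4, a log2 change of 4.77 ± 0.20 (edgeR adjusted p = 2.09e-15). miR-41-3p had 201, 217 and 186 CPM in Adults and 11.3, 6.28 and 10.7 CPM at L4, a change of 4.41 ± 0.29. Its partner miR-41-5p* had 661, 961 and 986 CPM in Adults and 122, 53.4 and 88.8 CPM at L4, a change of 3.30 ± 0.22. The starred arms moved with their partners: the changes were 3.86 ± 0.39 for miR-35-5p*, 3.20 ± 0.21 for miR-39-5p*, 2.86 ± 0.21 for miR-40-5p* and 2.81 ± 0.18 for miR-36-5p*. The upper end of the family's range came from miR-38-5p*, with 16.5, 19.4 and 17.4 CPM in Adults and 0.298, 0.571 and 0.632 CPM at L4. At such low L4 counts the size of its fold change, 5.01 ± 0.38, depends on very few reads. The lower end was miR-42-3p at 2.13 ± 0.17, with 662, 491 and 629 CPM in Adults and 124, 145 and 137 CPM at L4.

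These hairpins lie in 2 places of the genome. In the WBcel235 annotation, matched by name (the authors' build: not given in the sources used here), mir-35 to mir-41 fall within II:11537608-11538404 on the plus strand, a stretch of 797 bp inside an intron of Y62F5A.9, which is on the opposite strand. mir-42 lies apart from them, at II:11889811-11890118 with mir-43 and mir-44. The more abundant arms of the first cluster changed by 3.24 to 4.77 in cdb330. In the second, miR-42-3p and miR-43-3p rose (2.13 and 1.71), while miR-44-3p was at -0.17 and did not pass the threshold. The less abundant arm of mir-44, miR-44-5p*, rose by 3.01. The levels of miR-44-3p nearly matched those of miR-45-3p, from a hairpin elsewhere, so its value may not be that of mir-44 alone. By seed, mir-43 was listed with the miR-2 family and mir-44 with the miR-44 family.

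Outside the miR-35 family, 56 arms rose and 79 fell in cdb330, with a median change of -0.18 over 199 arms. The abundant miR-77-3p had 53371, 53929.8 and 50859 CPM in Adults against 15129, 14689.7 and 18602 CPM at L4, and rose by 1.71 ± 0.12 on the log2 scale (edgeR adjusted p = 1.60e-11), or 0.35 on the spike-in scale, where it did not pass (adjusted p = 0.0758). miR-71-5p, which promotes longevity in adult worms, had 132990, 142640 and 140783 CPM in Adults and 68884, 44725 and 57504 CPM at L4, a change of 1.28 ± 0.13 (edgeR adjusted p = 7.32e-09) that was -0.06 on the spike-in scale. miR-80-3p, of the bantam-related miR-58 family, had 69473, 88812 and 92056 CPM in Adults and 47824, 40882 and 45760.4 CPM at L4, a change of 0.90 ± 0.10 that was -0.46 on the spike-in scale. In all 3 the Adult and L4 libraries did not overlap.

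Several scarce arms rose further. miR-44-5p* had 392, 215 and 373 CPM in cdb330 Adults and 39, 25.1 and 58.2 CPM at L4, a change of 3.01 ± 0.28 (edgeR adjusted p = 1.54e-09). miR-73-5p* and miR-74-5p*, the starred arms of 2 hairpins of the miR-72 family, rose by 2.19 ± 0.19 and 2.15 ± 0.19. miR-34-5p*, the arm the files star although it is the more abundant of mir-34, had 503, 551 and 461 CPM in Adults and 188, 175 and 196 CPM at L4, a rise of 1.44 ± 0.13, or 0.08 with spike-ins. The mir-34 gene acts in the response to DNA damage and in ageing. The unstarred miR-34-3p, with 22.1, 19.9 and 14.9 CPM in Adults and 14.6, 20.3 and 23.7 CPM at L4, was at -0.04 ± 0.23 and did not pass.

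Of the arms with a mean of at least 10 CPM, the largest falls in cdb330 were in miR-790-5p and miR-795-5p. miR-790-5p had 35, 20.4 and 31.4 CPM in Adults against 252, 314 and 273 CPM at L4, a change of -3.27 ± 0.22 (edgeR adjusted p = 7.01e-12). miR-795-5p, which shares the let-7 seed, had 17.5, 14.6 and 10.5 CPM in Adults and 150.2, 145 and 113 CPM at L4, a change of -3.26 ± 0.29 (edgeR adjusted p = 1.04e-09). Both fell under every scaling run, but total reads and spike-ins move the changes down as a whole, so a fall could not turn there. The Adult and L4 libraries of both arms were far apart. The next were miR-237-3p*, the star arm of a lin-4 relative, at -2.78 ± 0.28, miR-789-2-5p at -2.43 ± 0.28, and miR-242-5p at -2.42 ± 0.21. lsy-6-3p, from the microRNA that sets left-right asymmetry of the ASE taste neurons, had 7.2, 2.09 and 2.99 CPM in Adults and 18.5, 21.4 and 17.4 CPM at L4, a change of -2.21 ± 0.33. The remaining 4 of the 10 largest falls were miR-81-5p* (-1.95), miR-86-3p* (-1.90), miR-228-3p* (-1.90) and miR-1821-3p (-1.81). The rule that chose these 10 took arms whose Adult and L4 libraries did not overlap.

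Most arms of the larval timers were lower in cdb330 Adults. Of the 12 let-7 family arms tested, 0 rose and 8 fell (36.7% of all arms fell), with a median of -0.76 beside -0.06 over all arms, and all 3 arms of lin-4 and mir-237 fell, with a median of -0.91. Both medians stayed below 0 under every scaling run. That is no check on them, since total reads and spike-ins move the changes down as a whole (medians -0.63 and -1.35) and DESeq2's size factors by 0.03. let-7-5p, which represses lin-41 at the larval-to-adult switch, had 6747, 8091 and 7856 CPM in Adults against 13939, 13319.8 and 12398 CPM at L4, a change of -0.81 ± 0.12 (edgeR adjusted p = 2.87e-06). lin-4-5p, which represses lin-14 in young larvae, had 2077, 2241 and 1995 CPM in Adults and 2888, 3371 and 2992 CPM at L4, a change of -0.55 ± 0.10. Its relative miR-237 had 2576, 2705 and 2465 CPM in Adults and 4588, 4845 and 5146 CPM at L4, a change of -0.91 ± 0.11. The 3 let-7 sisters that together control the early larval fates were less alike. miR-241-5p had 1266, 1141 and 1153 CPM in Adults and 2719.9, 2142 and 2073 CPM at L4, a change of -0.96 ± 0.15. miR-84-5p had 7155, 7515 and 7124 CPM in Adults and 9179, 8898 and 8857 CPM at L4, a change of -0.31 ± 0.10 (edgeR adjusted p = 0.0113). miR-48-5p, at 32621, 30476 and 28877 CPM in Adults and 36300.1, 31915 and 35059.5 CPM at L4, was at -0.17 ± 0.10 and did not pass the threshold (edgeR adjusted p = 0.153), though it did with total reads (-0.79) and with spike-ins (-1.52). Worms within L4 were not dated by the labels, and the part of their exact age in these values was not tested.

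The arms listed as markers of neurons and glia were lower in cdb330 Adults. The 5 neuronal arms (of lsy-6, mir-124, mir-137 and mir-791) all fell (36.7% of all arms fell), with a median of -1.63. They did so under each scaling that kept them in the test, though total reads and spike-ins move the changes down as a whole. Their summed level ran from 287.7 to 322.3 CPM in cdb330 Adults and from 639.1 to 701.3 CPM at L4. miR-137-3p, known from neurons in mammals, gave most of it, with 295, 311 and 276 CPM in Adults and 609, 655 and 595 CPM at L4, a change of -1.07 ± 0.10 (edgeR adjusted p = 3.70e-09). miR-124-3p, a sensory neuron microRNA, had 3.6, 6.8 and 2.99 CPM in Adults and 8.94, 11.4 and 11.7 CPM at L4, a change of -1.26 ± 0.35. The scarce miR-791-5p* was at -1.84 ± 0.51 with 2.57, 1.05 and 1.99 CPM in Adults and 7.15, 7.99 and 5.37 CPM at L4. miR-228-5p, found in glia, had 6936, 7579.8 and 7000.0 CPM in Adults and 12684, 12869 and 11856 CPM at L4, a change of -0.80 ± 0.10.

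The arms listed for muscle were those of mir-1. miR-1-3p, the muscle microRNA, had 96731, 115716 and 106758 CPM in cdb330 Adults and 105558, 100444 and 110036 CPM at L4. Its stages overlapped and the change was 0.01 ± 0.13 (edgeR adjusted p = 0.927), or -0.62 with total reads and -1.34 with spike-ins. Its partner miR-1-5p* had 56.1, 69.1 and 72.7 CPM in Adults and 83.5, 99.3 and 83.8 CPM at L4, and fell (-0.43 ± 0.14, edgeR adjusted p = 0.0105). Of the 5 arms listed for the somatic gonad, 2 rose and 1 fell (33.5% and 36.7% of all arms), with a median of 0.01 that was below 0 with total reads and spike-ins. miR-246-3p, from a gene expressed in gonadal sheath cells, had 6384, 7667 and 6905 CPM in Adults and 3963, 3455 and 4925 CPM at L4, a change of 0.76 ± 0.13 that was -0.59 on the spike-in scale. miR-786-3p, which acts in the intestine in the timing of defecation, had 743, 473 and 469 CPM in Adults and 575, 634 and 499.7 CPM at L4. Its stages overlapped at -0.02 ± 0.20, or 0.0082 with DESeq2's size factors. The part of tissue makeup in the other results was not tested.

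miR-62-3p, a mirtron released by splicing and not by Drosha, had 255, 231 and 278 CPM in cdb330 Adults and 258, 291 and 227 CPM at L4, and its change was -0.02 ± 0.14 (edgeR adjusted p = 0.897), or 0.0083 with DESeq2's size factors and -1.38 on the spike-in scale. In wild type it had 147, 230.3 and 190.2 CPM in Adults and 302, 261 and 255 CPM at L4, a change of -0.53 ± 0.14 (edgeR adjusted p = 0.00269). The difference between these changes was 0.50 ± 0.20 (edgeR adjusted p = 0.0854), which did not pass and was -0.076 with spike-ins.

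The other seed families changed by less, and most of their directions depended on the scale. Over all arms 33.5% rose and 36.7% fell under TMM, and counts such as 5 of 11 or 3 of 7 lie near those shares. All 6 arms of the miR-72 family rose, with a median of 0.74, but 2 rose and 4 fell on the spike-in scale. Its abundant member miR-72-5p had 24534, 24519.8 and 23889.6 CPM in Adults and 13823, 13558 and 13709.7 CPM at L4, a change of 0.83 ± 0.09, or -0.53 with spike-ins. In the miR-64 family, 7 of 10 arms rose and 0 fell (median 0.39), while 0 rose with total reads and all 10 fell with spike-ins. miR-66-5p had 27781, 27542 and 24802 CPM in Adults and 15261, 14952 and 17647 CPM at L4, a change of 0.74 ± 0.09, or -0.61 with spike-ins. The miR-238 family, known from stress and ageing, had 4 rises among 5 arms (median 0.66, and -0.70 with spike-ins), and the miR-2 family 4 rises and 1 fall among 8 (median 0.54, and -0.81 with spike-ins). In the miR-51 family, which is needed for embryonic development, 5 of 11 rose and 2 fell (median 0.23, and -1.11 with spike-ins). miR-51-5p had 38833, 29984 and 31168 CPM in Adults and 23704, 15787 and 19841 CPM at L4, a change of 0.75 ± 0.15, or -0.59 with spike-ins. The miR-58 family was divided, with 4 arms higher and 5 lower of 9 and a median of -0.37, against 2 and 5 with total reads and 0 and 8 with spike-ins. Its member miR-58a-3p had 72873, 62283 and 52330.2 CPM in Adults and 38106, 40118 and 60215 CPM at L4, with L4 replicate 3 among the Adult values. Its change of 0.44 ± 0.14 (edgeR adjusted p = 0.00946) was -0.18 with total reads and -0.92 with spike-ins, and it did not pass without cdb330 L4 replicate 1 or without cdb330 Adult replicate 1. Of the miR-44 family 3 of 7 rose and 1 fell, against 1 and 4 with total reads and 1 and 6 with spike-ins. Of mir-46 and mir-47, 0 of 4 arms rose and 2 fell, against all 4 with either of these scalings. Of the 13 arms listed for ageing, 7 rose and 4 fell, with a median of 0.63 under TMM, -0.73 with spike-ins and close to 0 with total reads.

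Set beside wild type, the stage change in cdb330 ran mostly in the same direction and was wider. Across the 215 arms the changes of the 2 genotypes, which share no library, gave Pearson's r = 0.888 and Spearman's rho = 0.898 (0.848 and 0.874 over the 199 arms outside the miR-35 family). These are correlations across arms, which are not independent replicates. The SD of the log2 change over the arms was 1.5 in cdb330, 0.981 in wild type and 0.830 in cdb328, and 1.17, 0.841 and 0.748 without the miR-35 family. Rises were called in both genotypes for 55 arms, of 72 in cdb330 and 62 in wild type, and 43 of the 55 were larger in cdb330. Outside the miR-35 family, 27 of 39 such rises were larger in cdb330. Falls were called in both for 61 arms, of 79 in cdb330 and 82 in wild type, and 41 of the 61 were larger in cdb330. A further 17 arms were higher and 17 lower in cdb330 without passing in wild type, which does not by itself show that they differ.

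The difference between the stage changes was therefore tested directly. The change in cdb330 minus that in wild type passed for 35 of 215 arms (16.3%), 22 with a more positive change in cdb330 (10.2%) and 13 with a more negative one (6.05%). In 27 of the 35 the change had the same direction in both and was larger in cdb330, in 2 it was smaller, and in 6 the signs were opposite. With total reads the calls were 16 more positive and 20 more negative. With spike-ins, a scale that moved the differences by a median of -0.58, they were 14 and 56. Under TMM, 31 of the 35 arms also differed between cdb330 and wild type at L4, where 30.7% of all arms did. In Adults 6 of the 35 did, beside 7.44% of all arms, and 28 did so at L4 alone. The labels give no age in hours, so stage at collection and genotype cannot be told apart in the L4 values of these arms.

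**Figure D3:**
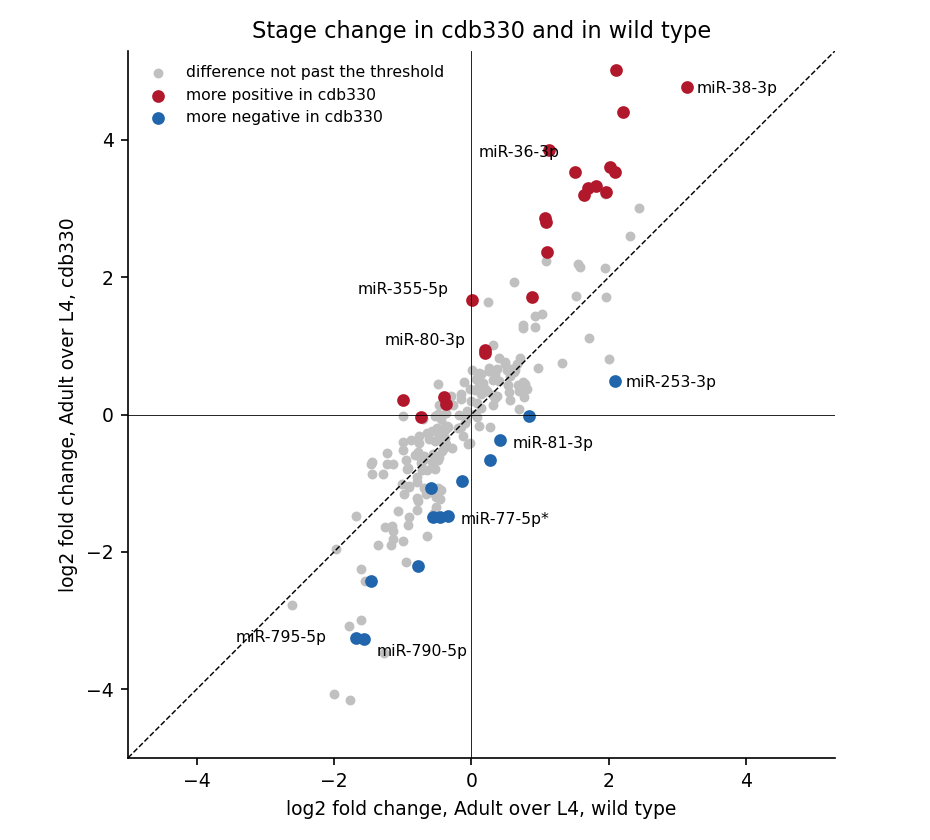
Log2 fold change of Adult over L4 for each of the 215 arms in wild type (horizontal) and cdb330 (vertical), under TMM scaling. The dashed line marks equal changes, red points are the 22 arms whose change was more positive in cdb330 by the test of the difference, blue points the 13 more negative, and grey points the rest. The red points at upper right include 14 arms of the miR-35 family.

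Of the 22 more positive arms, 14 belonged to the miR-35 family. The family's median difference was 1.60, beside 0.11 over all arms, and its wild-type changes ran from 1.08 to 3.14. miR-36-3p, with the smallest p, had 10359, 11895 and 12545 CPM in wild-type Adults and 4360.1, 3294 and 4566 CPM in wild-type L4 larvae, where it rose by 1.51 ± 0.15, and its rise in cdb330 exceeded that by 2.03 ± 0.20 (edgeR adjusted p = 2.02e-07). miR-35-3p had 100740, 72344 and 79798 CPM in wild-type Adults and 19337, 17541 and 25338 CPM in wild-type L4 larvae, and its difference was 1.59 ± 0.25 (edgeR adjusted p = 4.82e-05). The differences of the other named members were 2.20 for miR-41-3p, 1.78 for miR-40-5p*, 1.72 for miR-36-5p*, 1.63 for miR-38-3p, 1.57 for miR-39-5p*, 1.52 for miR-37-3p and 1.43 for miR-39-3p. The exceptions were both arms of mir-42, the hairpin outside the cluster: miR-42-3p rose by 2.13 ± 0.17 in cdb330 and 1.95 ± 0.17 in wild type, a difference of 0.18 ± 0.23 (edgeR adjusted p = 0.619), and miR-42-5p* gave a difference of 0.29 ± 0.36. Whether the mir-42 arms differ from the cluster was not tested.

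Within a stage, the L4 libraries carried the genotype difference in this family. At L4 the cdb330 level was below wild type for 14 of 16 arms past the threshold, against 20.5% of all arms called lower at L4, with log2 ratios from -2.63 to -0.26. In Adults 0 of 16 passed in edgeR (16 of all 215 arms did, 7.44%, with 6 higher, 2.79%, and 10 lower, 4.65%), with ratios from -0.43 to 0.44. The mean share of microRNA reads was 2.26% ± 0.558 at L4 in cdb330 and 6.74% ± 1.04 at L4 in wild type, while the Adult shares were 16.5% ± 0.584 in cdb330 and 17.9% ± 1.29 in wild type (SD, n = 3 each). Over all arms, 66 of 215 (30.7%) differed between cdb330 and wild type at L4, 22 higher and 44 lower. Stage at collection and genotype cannot be told apart within these L4 values, since the labels give no age in hours.

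Outside the miR-35 family, 21 arms had a called difference, 8 more positive and 13 more negative. miR-355-5p had the smallest p of these. It had 375, 446 and 481 CPM in cdb330 Adults and 147, 132 and 131 CPM in cdb330 L4 larvae, a change of 1.67 ± 0.13 (edgeR adjusted p = 5.89e-11). In wild type it had 2211, 2080.0 and 1648 CPM in Adults and 2171, 1924 and 1792 CPM at L4, with overlapping stages and a change of 0.01 ± 0.12, or -0.53 with total reads and -0.73 with spike-ins. The difference was 1.66 ± 0.17 (edgeR adjusted p = 2.17e-07). The level in cdb330 was lower than in wild type at both stages, by a log2 ratio of -3.85 ± 0.14 at L4 and of -2.19 ± 0.13 in Adults.

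miR-77-3p had 39817, 52998 and 57357 CPM in wild-type Adults and 26567, 26977 and 27818 CPM in wild-type L4 larvae, a rise of 0.88 ± 0.12, against 1.71 ± 0.12 in cdb330, and the difference was 0.82 ± 0.17 (edgeR adjusted p = 0.000655), or 0.26 with spike-ins, where it did not pass. Its partner arm took the other direction in cdb330: miR-77-5p* had 762, 447 and 768 CPM in Adults and 1970.2, 1446 and 2068 CPM at L4, a change of -1.47 ± 0.21. In wild type miR-77-5p* had 2056, 1901 and 1592 CPM in Adults and 2085, 2118 and 2816 CPM at L4, a change of -0.34 ± 0.21, and the difference was -1.13 ± 0.29 (edgeR adjusted p = 0.00792). miR-80-3p had 65768, 66596 and 58174 CPM in wild-type Adults and 57316, 54926 and 54175 CPM in wild-type L4 larvae, a change of 0.20 ± 0.10 that did not pass, or -0.34 with total reads and -0.56 with spike-ins. The difference was 0.70 ± 0.14 (edgeR adjusted p = 0.000655), and it did not pass with spike-ins (0.11) or without wild-type L4 replicate 1 or 2 or wild-type Adult replicate 3. Its cdb330 level was above wild type in Adults (0.39 ± 0.10) and below it at L4 (-0.31 ± 0.10).

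**Figure D4:**
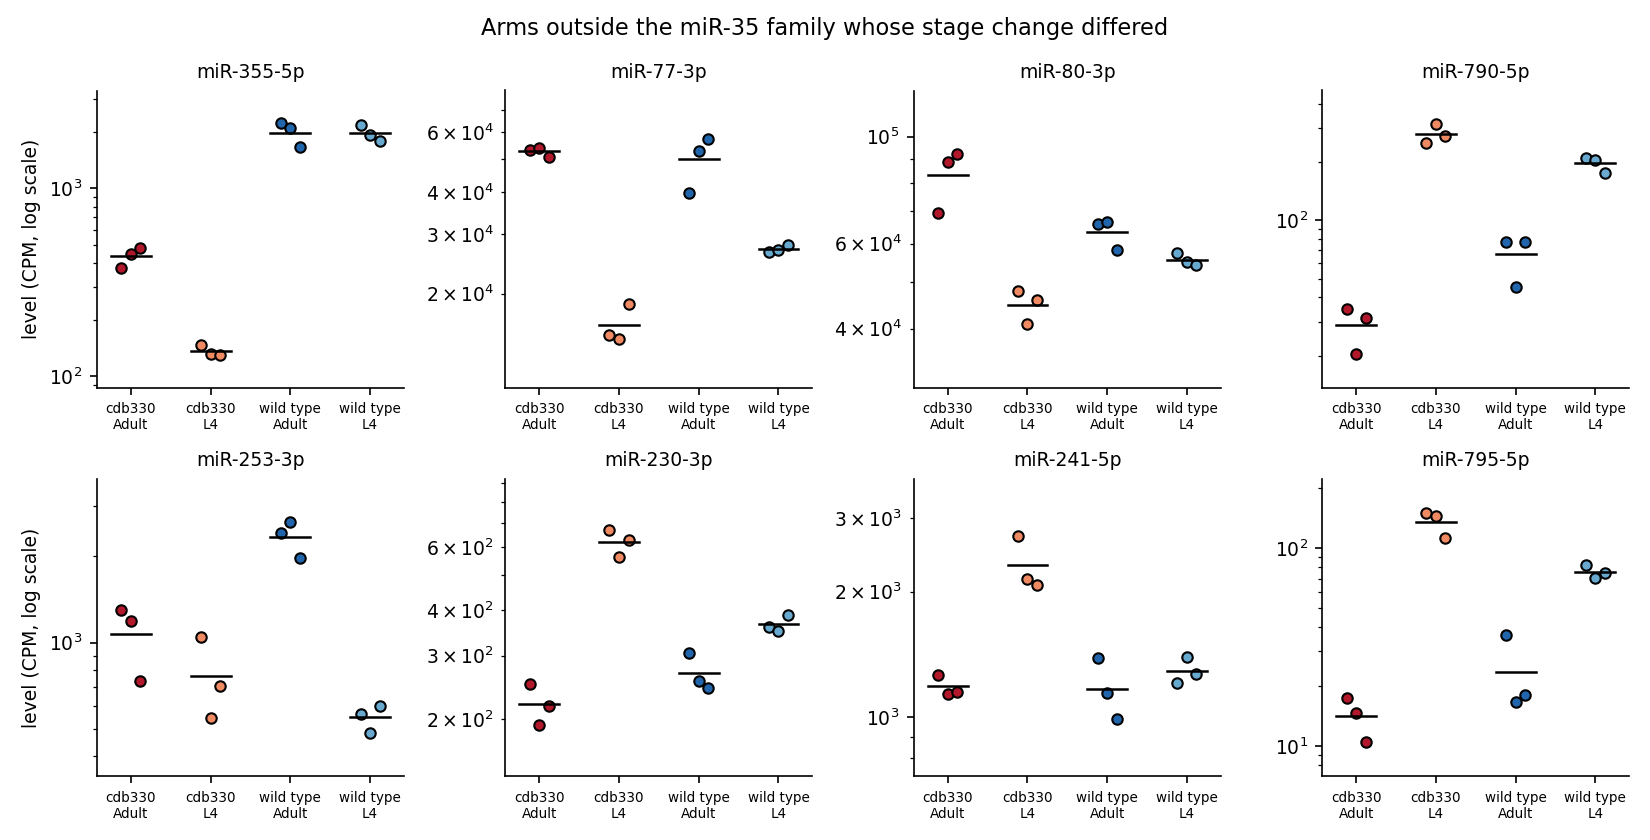
Levels in each library, in CPM on log axes, of 8 arms outside the miR-35 family with a called difference of stage changes. Points are libraries and lines the mean of 3, with cdb330 Adult, cdb330 L4, wild-type Adult and wild-type L4 from left to right. miR-355-5p lies between 131 and 481 CPM in all 6 cdb330 libraries and between 1648 and 2211 CPM in all 6 wild-type libraries.

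Among the more negative arms, miR-790-5p fell further in cdb330 than in wild type, where it had 77.6, 45.3 and 77.4 CPM in Adults and 209.8, 205 and 175 CPM at L4 (-1.56 ± 0.20). The difference was -1.71 ± 0.30 (edgeR adjusted p = 0.000156). miR-230-3p had 251, 193 and 218 CPM in cdb330 Adults and 668, 562 and 627 CPM in cdb330 L4 larvae, against 305, 254 and 244 CPM in wild-type Adults and 359.6, 352 and 388 CPM in wild-type L4 larvae. Its changes were -1.49 ± 0.15 in cdb330 and -0.45 ± 0.15 in wild type, and the difference was -1.04 ± 0.21 (edgeR adjusted p = 0.000655). The cdb330 L4 libraries were the high ones here. The same held for the let-7 sister miR-241-5p, with 1385, 1142 and 990.3 CPM in wild-type Adults and 1208, 1393 and 1269 CPM in wild-type L4 larvae. Its wild-type change was -0.14 ± 0.15 and the difference -0.82 ± 0.21 (edgeR adjusted p = 0.00688). miR-795-5p had 36.3, 16.6 and 18 CPM in wild-type Adults and 81.8, 70.7 and 74.5 CPM in wild-type L4 larvae, and its difference of -1.58 ± 0.41 (edgeR adjusted p = 0.008) did not pass without wild-type Adult replicate 1.

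The log2 change of miR-245-3p was -1.50 ± 0.19 in cdb330 and -0.55 ± 0.18 in wild type, and the difference of -0.95 ± 0.26 (edgeR adjusted p = 0.012) was likewise lost without wild-type Adult replicate 1. The neuronal miR-137-3p, with 333, 304 and 316 CPM in wild-type Adults and 485, 468 and 477 CPM in wild-type L4 larvae, gave a difference of -0.49 ± 0.15 (edgeR adjusted p = 0.0225), lost without cdb330 L4 replicate 2 or cdb330 Adult replicate 3. lsy-6-3p, at 6.96, 5.84 and 6.89 CPM in wild-type Adults and 7.74, 12.8 and 13.3 CPM in wild-type L4 larvae, gave -1.43 ± 0.48 (edgeR adjusted p = 0.0443), lost with a replicate block, without the filter, in the fit of the compared groups alone, and without cdb330 L4 replicate 1 or 2, cdb330 Adult replicate 2 or 3, wild-type L4 replicate 1, or wild-type Adult replicate 1 or 2. These are the 2 of the 5 neuronal arms that differed (6.05% of all arms were more negative), with a median difference of -0.49 over the 5. miR-2210-3p, at 31.9, 21.5 and 18.9 CPM in cdb330 Adults and 34.6, 33.7 and 46.5 CPM in cdb330 L4 larvae, gave -0.94 ± 0.30 (edgeR adjusted p = 0.0289), lost without wild-type Adult replicate 1, cdb330 L4 replicate 3, or cdb330 Adult replicate 2 or 3.

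A few arms rose in wild type and rose less, did not pass or fell in cdb330. miR-253-3p had 1302, 1185 and 733 CPM in cdb330 Adults and 1045, 546 and 704 CPM in cdb330 L4 larvae, ranges that overlap, with a change of 0.49 ± 0.21 (edgeR adjusted p = 0.0376) that turned below 0 with total reads and with spike-ins. In wild type it had 2419.9, 2633 and 1977 CPM in Adults and 564, 483 and 599 CPM at L4, a rise of 2.10 ± 0.21. The difference was -1.61 ± 0.29 (edgeR adjusted p = 0.000232). miR-81-3p, a bantam-family relative of miR-80-3p, had 15259.8, 13212 and 13372 CPM in cdb330 Adults and 20569.9, 17556 and 15801 CPM in cdb330 L4 larvae, and fell (-0.37 ± 0.12). In wild type it had 19433, 17850.5 and 15052 CPM in Adults and 12877, 11748 and 14549 CPM at L4 and rose (0.42 ± 0.12), though not with total reads or spike-ins, and the difference was -0.78 ± 0.17 (edgeR adjusted p = 0.00137). It was the sole arm called lower in cdb330 and higher in wild type. miR-786-3p had 467, 742 and 818 CPM in wild-type Adults and 355, 329 and 446 CPM in wild-type L4 larvae, where it rose (0.84 ± 0.20), against -0.02 in cdb330, a difference of -0.86 ± 0.28 (edgeR adjusted p = 0.034). That difference was lost without cdb330 L4 replicate 1 or 2, cdb330 Adult replicate 2 or 3, or wild-type Adult replicate 2.

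The other way round, 4 arms fell in wild type, did not pass in cdb330 under TMM and had a called, more positive difference. On the spike-in scale all 4 fell in cdb330 too, with log2 changes of -1.39 to -1.09. These were both arms of mir-47, miR-1829c-5p and miR-4812-5p. miR-47-5p* had 124, 165 and 138 CPM in cdb330 Adults and 145, 154 and 139 CPM in cdb330 L4 larvae, against 78.6, 110.0 and 95.4 CPM in wild-type Adults and 161, 161 and 151 CPM in wild-type L4 larvae. The stages overlapped in cdb330 (-0.03 ± 0.13) and not in wild type (-0.74 ± 0.14), and the difference was 0.70 ± 0.19 (edgeR adjusted p = 0.0118). The abundant miR-47-3p had 8049, 8629 and 8396 CPM in cdb330 Adults and 6430.0, 6998 and 9101 CPM in cdb330 L4 larvae, against 5832, 6866 and 6766 CPM in wild-type Adults and 8293, 9062 and 7664 CPM in wild-type L4 larvae, a difference of 0.52 ± 0.16 (edgeR adjusted p = 0.0289). The differences were 0.67 ± 0.21 for miR-1829c-5p and 1.21 ± 0.38 for miR-4812-5p (edgeR adjusted p = 0.0283 and 0.0289). With total reads and with spike-ins none of the 4 differences passed (-0.052 for miR-47-3p and 0.10 to 0.66 for the others with spike-ins). All 4 were also lost without wild-type L4 replicate 2 and without wild-type Adult replicate 3, and all but that of miR-47-5p* in the fit of the compared groups alone, without wild-type Adult replicate 1, without cdb330 L4 replicate 1 or 2 and without cdb330 Adult replicate 3. Without wild-type L4 replicate 1 all but that of miR-4812-5p were lost, without cdb330 Adult replicate 1 that of miR-4812-5p, and without cdb330 Adult replicate 2 that of miR-47-3p.

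The timers gave no called difference in their main arms other than miR-241-5p and miR-795-5p. The change of let-7-5p was -0.81 ± 0.12 in cdb330 and -0.65 ± 0.12 in wild type, with a difference of -0.16 ± 0.17 (edgeR adjusted p = 0.549). For lin-4-5p the changes were -0.55 ± 0.10 in cdb330 and -0.78 ± 0.10 in wild type, a difference of 0.23 ± 0.15 (edgeR adjusted p = 0.292), or -0.35 with spike-ins, and for miR-237 the difference was -0.12 ± 0.16. miR-71-5p rose by 1.28 ± 0.13 in cdb330 and 0.92 ± 0.13 in wild type, and its difference of 0.36 ± 0.18 did not pass (edgeR adjusted p = 0.188) and was -0.26 with spike-ins. At this spread between libraries, a p above the threshold does not show that the 2 genotypes changed alike.

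The same arms can be read against the other drsh-1 allele, in a comparison that uses the same cdb330 libraries. The change in cdb330 minus that in cdb328 passed for 51 of 215 arms (23.7%), 38 more positive and 13 more negative, with 19 and 35 by total reads and 14 and 54 by spike-ins. All 16 arms of the miR-35 family were among the 38 (17.7% of all arms), with a median difference of 2.14. The family's share was 16.6% ± 0.363 in cdb328 Adults and 7.64% ± 0.489 in cdb328 L4 larvae (SD, n = 3 each). miR-36-3p had 15239, 14922 and 14362 CPM in cdb328 Adults and 5358, 6058 and 6136 CPM in cdb328 L4 larvae, and the difference from its change in cdb330 was 2.19 ± 0.20 (edgeR adjusted p = 4.59e-08). miR-790-5p had 3.42, 7.22 and 2.51 CPM in cdb328 Adults and 5.16, 2.46 and 5.71 CPM in cdb328 L4 larvae, with a change of -0.06 ± 0.48 there (0.079 with DESeq2's size factors) and a difference of -3.21 ± 0.57 (edgeR adjusted p = 0.000152). miR-71-5p had 3833, 4367 and 4196 CPM in cdb328 Adults and 3656, 3371 and 3474 CPM in cdb328 L4 larvae, and its difference was 1.04 ± 0.18 (edgeR adjusted p = 0.000121), or 0.33 with spike-ins, where it did not pass. Both miR-790-5p and miR-71-5p were far lower in cdb328 than in cdb330 at L4, and the cdb328 change of miR-790-5p rests on few reads at both stages. miR-355-5p behaved differently from these, with 675, 720.0 and 783 CPM in cdb328 Adults and 302, 290.0 and 302 CPM in cdb328 L4 larvae. Its change there was 1.28 ± 0.12, and the difference of 0.38 ± 0.18 from cdb330 did not pass (edgeR adjusted p = 0.114) and was -0.34 with spike-ins. Of the named arms, miR-86-3p* (-1.20), miR-249-3p (-1.72), miR-76-3p (-0.77) and miR-58a-5p* (-0.64, lost without cdb328 L4 replicate 2) had a more negative change in cdb330 than in cdb328.

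The Adult side of these differences was also measured with the degenerate adaptors. There 1 of 191 arms (0.524%) differed between cdb330 and wild type in edgeR at the threshold, 37 at an unadjusted p below 0.05, and 26 in DESeq2, with a wide spread between libraries (biological coefficient of variation 0.598, against 0.123 in the NEBNext libraries). The arm was miR-355-5p, with a log2 ratio of -2.14 ± 0.16 (edgeR adjusted p = 0.000374), beside -2.19 ± 0.13 in the NEBNext Adults. miR-790-5p was at -1.37 ± 0.54 and miR-77-5p* at -1.16 ± 0.36, neither past the threshold, beside -1.20 ± 0.23 and -1.49 ± 0.21 in the NEBNext Adults. Library names hint that both kinds of library came from the same RNA, so they may not be independent samples.

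The arms of each hairpin share a precursor, and in cdb330 they did not always move together. Of 86 hairpins with both arms tested, 34 had both arms called in the same direction and 10 in opposite directions under TMM. The count of 10 depends on that scale, as spike-ins moved the changes by a median of -1.35. The rising arms of these pairs reached at most 1.71 (miR-77-3p, which did not pass with spike-ins) and next 1.28 (miR-71-5p). The pairs were not recounted on another scale. Over all arms, 33.5% were called higher and 36.7% lower. The median absolute gap between the changes of the 2 arms was 0.636. Across hairpins Pearson's r was 0.744 and Spearman's rho 0.541, or 0.483 and 0.391 over the 78 hairpins outside the miR-35 family. mir-77 was the widest of the opposite pairs. For mir-71, miR-71-5p was at 1.28 under TMM and -0.06 with spike-ins, while miR-71-3p* had 370.4, 466 and 442 CPM in Adults and 786, 748 and 651 CPM at L4, a change of -0.77 ± 0.14. For mir-246, miR-246-5p* had 36, 23.5 and 40.8 CPM in Adults and 86.4, 76.8 and 69.5 CPM at L4 and fell (-1.21 ± 0.21), against 0.76 for miR-246-3p under TMM and -0.59 with spike-ins. For mir-80, miR-80-5p* fell (-0.59 ± 0.10) against 0.90 for miR-80-3p, which was -0.46 with spike-ins. In mir-44 and mir-73 it was the starred arm that rose most: miR-44-3p had 10740.3, 11666 and 12389 CPM in Adults and 12649.9, 12975 and 13532 CPM at L4 (-0.17 ± 0.10), against 3.01 for miR-44-5p*. miR-73-3p had 4754, 5351 and 5663 CPM in Adults and 5063, 4344 and 3894 CPM at L4 (0.25 ± 0.11, or -0.39 with total reads and -1.11 with spike-ins), against 2.19 for miR-73-5p*. The call of miR-73-3p was lost with a replicate block, without the filter, in the fit of the compared groups alone, and without cdb330 L4 replicate 2 or 3 or cdb330 Adult replicate 2 or 3. The less abundant arm's change minus that of the more abundant arm had the same sign in wild type for these hairpins. In cdb330 and wild type it was -3.18 and -1.22 for mir-77, 3.18 and 2.78 for mir-44, and -2.06 and -1.85 for mir-71. For mir-246 it was -1.97 and -1.29, for mir-73 1.95 and 1.22, and for mir-80 -1.49 and -1.01. Whether these gaps differ between the genotypes was not tested. Arms of near-identical hairpins can share reads, and the files do not say how the counting divided them. The main arms of mir-44 and mir-45 had nearly matching levels. In cdb330, miR-45-3p had 10600, 11710 and 12165 CPM in Adults and 12485, 13061 and 13420 CPM at L4 (-0.18). Their star arms were apart, with a change of -0.17 for miR-45-5p* against 3.01 for miR-44-5p*. The value of miR-44-3p may therefore hold reads of mir-45, and how much of the mir-44 gap lies within its own hairpin was not tested.

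**Figure D5:**
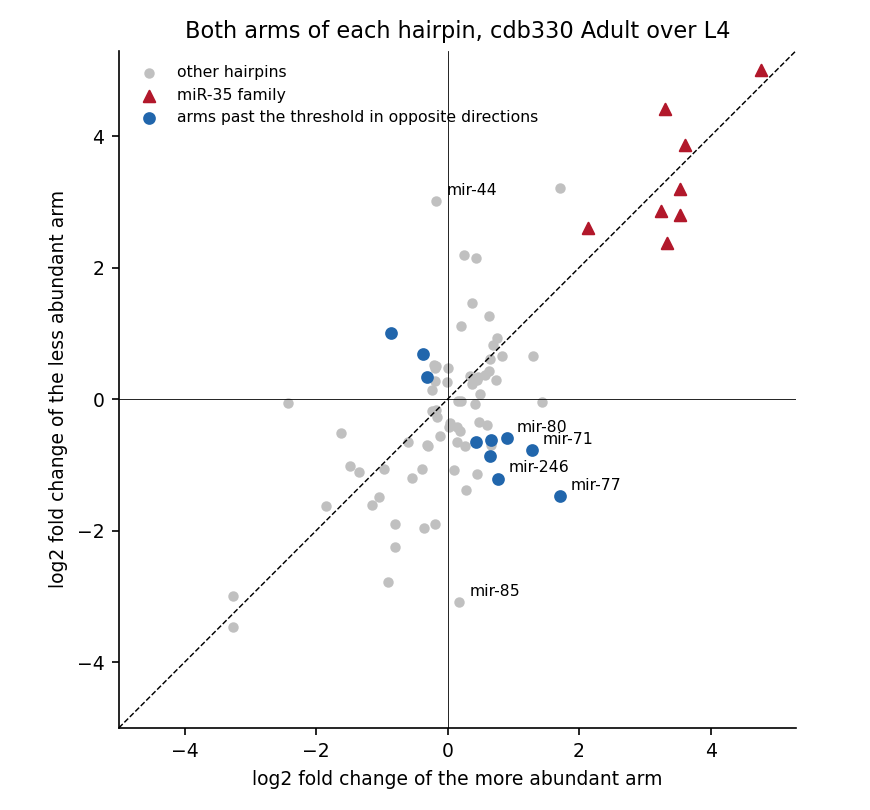
Log2 fold change of Adult over L4 in cdb330 of the more abundant arm (horizontal) and the less abundant arm (vertical) of 86 hairpins, under TMM scaling. The dashed line marks equal changes, red triangles are the 8 hairpins of the miR-35 family, and blue points the 10 hairpins whose arms passed the threshold in opposite directions.

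The calls of neighbouring hairpins were counted, beside 33.5% of all arms called higher and 36.7% lower. What neighbourhood adds to those shares was not tested. In the WBcel235 annotation, 49 hairpins with a tested arm lay in 19 clusters on the same strand with gaps of at most 10000 bp. In some clusters at least 1 of the more abundant arms was not called. In 8 clusters these arms were all called in the same direction, and in 1 they were called in both. That cluster holds mir-80, mir-238 and mir-90 within III:8865270-8874084 on the minus strand, where miR-80-3p and miR-238-3p rose (0.90 and 0.63 under TMM, both below 0 with spike-ins) and miR-90-3p fell (-0.32). The mir-229, mir-64, mir-65 and mir-66 cluster at III:2172452-2173206 on the plus strand had 4 of 4 higher under TMM and all 10 arms of its seed family lower with spike-ins. mir-228 and mir-790, within IV:5562025-5566491 on the plus strand, both fell, at -0.80 and -3.27. mir-230 and mir-791, within X:5803892-5809433 on the plus strand, did so too, at -1.49 for miR-230-3p and -1.84 for miR-791-5p*.

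Against the spike-ins, the microRNA reads as a whole were lower in cdb330 Adults. The Adult over L4 ratio of microRNA reads, each library divided by its spike-in size factor, was 0.605-fold in cdb330 (log2 -0.73 ± 0.04 SE), 0.848-fold in wild type (-0.24 ± 0.24) and 0.766-fold in cdb328 (-0.39 ± 0.15). In cdb330 all 3 Adult libraries lay below all 3 L4 libraries, with an exact two-sided permutation p of 0.1 (0.15 adjusted over the 3 genotypes), the smallest that 3 against 3 libraries allow. The exact permutation p was also 0.1 in cdb328, and it was 0.4 in wild type. With summed spike-in reads in place of size factors, the ratios were 0.634-fold in cdb330, 0.808-fold in wild type and 0.771-fold in cdb328. On that measure the exact permutation p was 0.1 in each of the 3 genotypes. Reads outside the miR-35 family were 0.517-fold in cdb330 and 0.747-fold in wild type, while those of the miR-35 family were 4.52-fold and 2.26-fold. The labels do not say that spike-in was added in equal amount, so the part of its dosing in these ratios was not tested.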

How the data were processed

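Per the labels, small RNA libraries were made with the NEBNext kit from Trizol-extracted total RNA of whole worms, or with adaptors carrying degenerate bases. The deposited tables hold reads per mature arm for 276 arms of 138 hairpins and for 10 spike-ins. The submitters' processing notes name HTSeq. The aligner, the build and the trimming were not given in the sources used here. Of the deposited values in the 18 libraries, 236 (4.75%) were not whole, so the deposited values, raw reads per the file headers of the NEBNext table, were handled as estimated counts and rounded. The other table carries no such header, and its values were taken as reads too. The use of strand and the division of reads among near-identical arms are not stated.

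Groups came from the labels. Members, lists, tests and the naming rule were chosen with earlier results of these data known. The 18 NEBNext libraries of 3 genotypes and 2 stages were fitted in edgeR 4.0.16 (R 4.3.3, limma 3.58.1): spike-ins left out, TMM, filterByExpr (minimum count 10, minimum total 15), glmQLFit with 1 coefficient per group, glmQLFTest, and a threshold of 0.05 on Benjamini-Hochberg adjusted p. SEs are those implied by the F statistic. Differences of stage changes were contrasts of 4 groups. The Adults made with degenerate adaptors, of cdb330, wild type and cdb328, were fitted together and apart from the others (191 arms, depth 578859 to 2585561 reads). Spike-in ratios were compared with exact permutation tests. Of 27 pairs of libraries of the same group, none agreed within sampling noise (lowest chi-square per degree of freedom 14.3). Each library was therefore handled as 1 sample, though this does not show that the libraries came from separate cultures. Intervals and errors cover these libraries only.

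Named arms were the 10 largest rises and falls in cdb330 among called, non-overlapping arms with a mean of at least 10 CPM, the 10 of smallest p in each direction of each difference, a fixed list of main arms, up to 3 arms of smallest p per list, and 5 hairpins whose arms diverged. The mir-42 arms, miR-38-5p*, miR-90-3p, miR-1-5p* and the further arms with a called difference from wild type were named after their values were seen. Hairpins were placed by name in the WBcel235 annotation (136 of 138 matched). Alternatives were DESeq2 1.42.0, its size factors, total reads, spike-ins, no filter, the miR-35 family left out, fits of the compared groups alone, a replicate block, and leaving out each library. Counts were simulated for the 215 arms with changes of 1 on the log2 scale. The edgeR fit recovered 89.5% of changed arms for cdb330 Adult over L4 and 73.7% for its difference from wild type. False calls numbered 3 and 1. The simulation changed 40 arms, evenly up and down and in cdb330 Adults alone, with a single spread for all arms. In the data 151 arms passed between the stages of cdb330, so these rates may not hold there.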

Additional observations from a re-analysis of the deposited data

Results flagged for a closer look

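These arms are listed because the test of the difference itself, a contrast of 4 groups in edgeR, gave them a stage change (Adult over L4, log2) in cdb330 that differed from that in another genotype. No explanation was weighed, and every value is the change in cdb330 minus the change in the other genotype under TMM scaling.

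Against wild type, the change in cdb330 was more positive by 2.03 for miR-36-3p, 1.66 for miR-355-5p, 1.72 for miR-36-5p*, 1.52 for miR-37-3p and 1.63 for miR-38-3p. It was also more positive by 1.59 for miR-35-3p, 1.78 for miR-40-5p*, 1.43 for miR-39-3p, 1.57 for miR-39-5p* and 2.20 for miR-41-3p. More negative differences were -1.71 for miR-790-5p, -1.61 for miR-253-3p, -1.04 for miR-230-3p, -0.78 for miR-81-3p and -0.82 for miR-241-5p. Further ones were -1.13 for miR-77-5p*, -1.58 for miR-795-5p, -0.95 for miR-245-3p, -0.49 for miR-137-3p and -0.94 for miR-2210-3p. The remaining called differences were 1.60 for miR-41-5p*, 1.28 for miR-40-3p, 2.90 for miR-38-5p*, 2.73 for miR-35-5p* and 1.27 for miR-37-5p* in the miR-35 family. Outside it they were 0.82 for miR-77-3p, 0.70 for miR-80-3p, 0.70 for miR-47-5p*, 0.67 for miR-1829c-5p, 0.73 for miR-51-3p*, 0.52 for miR-47-3p and 1.21 for miR-4812-5p, and -0.86 for miR-786-3p, -1.43 for lsy-6-3p and -0.95 for miR-242-5p.

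Against cdb328, in a comparison that uses the same cdb330 libraries, the change in cdb330 was more positive by 2.19 for miR-36-3p, 2.46 for miR-38-3p, 2.11 for miR-37-3p, 2.13 for miR-39-3p and 2.42 for miR-39-5p*. The other positive differences were 2.14 for miR-35-3p, 1.94 for miR-40-3p, 2.35 for miR-41-5p*, 1.90 for miR-36-5p* and 2.88 for miR-41-3p. More negative differences were -3.21 for miR-790-5p, -1.43 for miR-77-5p*, -1.20 for miR-86-3p*, -0.94 for miR-230-3p and -1.72 for miR-795-5p. The last ones were -1.72 for miR-249-3p, -0.77 for miR-76-3p, -0.62 for miR-81-3p, -0.51 for miR-137-3p and -0.64 for miR-58a-5p*.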

How the results depend on the processing

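The number of arms changed between the stages of cdb330 (151) ranged from 134 to 196 over the alternatives with all libraries, and from 139 to 150 when each library was left out. The wild-type number ranged from 128 to 144 in that way. The difference from wild type (35 arms) became 70 (14 more positive, 56 more negative) on spike-in factors and 19 (5 and 14) with the miR-35 family left out, where fewer arms are tested, and ranged from 27 to 40 when each library was left out, lowest without wild-type Adult replicate 1 and without cdb330 L4 replicate 2. The difference from cdb328 (51) became 33 (12 and 21) with the miR-35 family left out, 59 (23 and 36) with the compared groups alone, and ranged from 46 to 59. For the degenerate-adaptor Adults, 1 arm became 7 with DESeq2's size factors, 10 with total reads, 2 with spike-ins and 26 in DESeq2's Wald test, and 1 to 4 when each library was left out, 4 without wild-type Adult replicate 1. The log2 spike-in ratio of cdb330 ranged from -0.746 to -0.687 when each library was left out, and was -0.66 with summed spike-in reads. The cause of these shifts was not tested.

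Among single arms, the change in cdb330 turned sign with total reads for miR-1-3p (-0.62), miR-58a-3p (-0.18), miR-55-3p (-0.23), miR-63-3p (-0.0095), miR-64-5p (-0.15), miR-238-3p (-0.0024), miR-47-3p (-0.47), miR-240-5p* (-0.16), miR-240-3p (-0.62), miR-253-3p (-0.13), miR-1829c-5p (-0.36) and miR-73-3p (-0.39). With spike-ins it turned for miR-1-3p (-1.34), miR-71-5p (-0.063), miR-58a-3p (-0.92), miR-80-3p (-0.46), miR-246-3p (-0.59), miR-51-3p* (-0.42), miR-51-5p (-0.59), miR-55-3p (-0.95), miR-66-5p (-0.61), miR-63-3p (-0.73), miR-64-5p (-0.87), miR-72-5p (-0.53), miR-61-5p* (-0.52), miR-61-3p (-0.67), miR-239a-3p* (-0.060), miR-238-3p (-0.73), miR-238-5p* (-0.084), miR-250-3p (-0.72), miR-47-3p (-1.21), miR-240-5p* (-0.88), miR-240-3p (-1.35), miR-253-3p (-0.85), miR-1829c-5p (-1.09), miR-4812-5p (-1.14) and miR-73-3p (-1.11). The uncalled changes of miR-62-3p and miR-786-3p turned with DESeq2's size factors (0.0083 and 0.0082). With spike-ins the difference from wild type turned for miR-47-3p (-0.052) and, without a call on either scale, for lin-4-5p (-0.35), miR-71-5p (-0.26) and miR-62-3p (-0.076).

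Replicate numbers showed no clear pairing of the cdb330 libraries: the deviations of Adult and L4 libraries with the same number had correlations of -0.061, -0.0036 and 0.017. These were 0.029, 0.089 and 0.055 in wild type, and 0.062, -0.11 and -0.0078 in cdb328. With so few libraries per group this is a weak check of pairing. A fit with the replicate block gave 150 arms for cdb330, 144 for wild type, 35 and 49 for the 2 differences, and 1 for the degenerate-adaptor Adults.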
